A study of Mus musculus with 8 samples.

Results

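The 40 genes described here are transcripts that rise and fall with cell division. They were taken by name from a list of cell cycle genes and found by their Entrez gene numbers, a rule that uses no measured value. All 40 were measured, among 24570 named genes on the arrays. By role they divide into 1 G1 cyclin (Ccnd1), 16 S phase genes (Ccne1, Ccne2, E2f1, Cdc6, Cdt1, Gins2, Mcm2 to Mcm7, Pcna, Rrm1, Rrm2 and Tyms) and 23 mitotic genes (Mki67, Top2a, Ccnb1, Ccnb2, Ccna2, Cdk1, Aurka, Aurkb, Bub1, Bub1b, Cdc20, Plk1, Birc5, Tpx2, Foxm1, Kif11, Kif20a, Kif23, Cenpe, Cenpf, Ttk, Nusap1 and Prc1).

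The cells were primary macrophages grown from the femur and tibia marrow of wild-type mice aged 8 to 10 weeks. The labels name no strain or sex. Marrow cells were grown for 7 days in medium with 20% serum and 30% L cell-conditioned medium, a source of the macrophage growth factor M-CSF. They were then reseeded at 150000 cells per well in 10% serum and 15% L cell-conditioned medium. On the next day 4 samples received PBS and 4 received hepcidin at 10 µg/ml for 1 h, so both groups shared the growth factor and the serum. Hepcidin, the hormone of iron control, binds ferroportin, which carries iron out of cells. The comparison asks which transcripts differ after this hour. Each group holds arrays numbered 1 to 4. The labels do not say whether a number stands for an animal, a culture or a day, so the p-values below speak only of how far these samples spread, and that spread may be technical.

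Growth factors drive a resting cell into the cycle through D-type cyclins, whose kinases inactivate the retinoblastoma proteins and release E2F factors. E2F then drives the genes that load and fire replication origins and make nucleotides, which peak around S phase. Mitotic genes peak later, under the B-MYB and FOXM1 complexes, through CCAAT boxes and a cell cycle genes homology region (CHR). Macrophages grown from marrow can go on dividing in the presence of M-CSF.

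Array values are log2 intensities. The array medians ran from 4.90 to 4.97 and any pair of arrays correlated at 0.989 to 0.996 across genes. The macrophage markers Csf1r, Adgre1, Cd68, Itgam, Mertk, Fcgr1 and Cd14 had a median level of 11.53. Markers of B cells, T and NK cells, erythroid cells, endothelium and stroma, 34 genes, had a median of 4.23, against 4.92 over all genes. Taken alone, the endothelium markers had a median of 5.66, above that of all genes. The medians of the other lineages ran from 3.64 (erythroid) to 4.44 (stroma). Neutrophil and precursor markers differed between arrays, and their values stand beside the results they touch.

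The promoter letters differed in frequency between mitotic and S phase genes, with overlap, so 4 stretches are shown as examples: the S phase genes Rrm1 and Mcm7 and the mitotic genes Cdk1 and Bub1b. They were picked by the F of a limma test of replicate number, described below, which sets the differences between numbers against the residual spread. In each kind they have the largest F among members with an E2F match, or with both a CHR and a CCAAT match. Each stretch is the 250 bases before the RefSeq start, from GRCm38.p6, written 5′ to 3′ on the gene's strand. Capitals mark matches, on either strand, to the CHR letters TTTGAA or TTCGAA, and the CCAAT box CCAAT. They also mark the E2F letters, searched as TTCCCGC, then as TTGGCGC, then as TTCGCGC, then as TTGCCGC. The opposite strand of a CCAAT box reads ATTGG, which can overlap the E2F letters TTGGCGC. The stretches lie at chr7:102441445-102441694 (plus strand) for Rrm1, chr5:138171884-138172133 (minus strand) for Mcm7, chr10:69352913-69353162 (minus strand) for Cdk1 and chr2:118597961-118598210 (plus strand) for Bub1b.
Rrm1: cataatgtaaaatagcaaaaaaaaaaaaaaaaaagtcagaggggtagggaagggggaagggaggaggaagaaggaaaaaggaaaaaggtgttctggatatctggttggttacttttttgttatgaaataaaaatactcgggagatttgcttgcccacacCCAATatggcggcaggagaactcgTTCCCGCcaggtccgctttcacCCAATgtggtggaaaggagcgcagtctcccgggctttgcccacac
Mcm7: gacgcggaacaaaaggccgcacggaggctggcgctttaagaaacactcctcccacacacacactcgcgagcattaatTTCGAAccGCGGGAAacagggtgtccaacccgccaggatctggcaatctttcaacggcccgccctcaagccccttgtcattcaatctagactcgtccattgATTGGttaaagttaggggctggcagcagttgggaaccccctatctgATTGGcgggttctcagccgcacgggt
Cdk1: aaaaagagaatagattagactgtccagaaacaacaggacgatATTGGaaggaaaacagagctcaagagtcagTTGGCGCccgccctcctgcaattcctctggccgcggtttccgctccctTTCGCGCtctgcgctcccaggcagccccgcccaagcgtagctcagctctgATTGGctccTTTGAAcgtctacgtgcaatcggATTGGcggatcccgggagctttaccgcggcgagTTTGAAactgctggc
Bub1b: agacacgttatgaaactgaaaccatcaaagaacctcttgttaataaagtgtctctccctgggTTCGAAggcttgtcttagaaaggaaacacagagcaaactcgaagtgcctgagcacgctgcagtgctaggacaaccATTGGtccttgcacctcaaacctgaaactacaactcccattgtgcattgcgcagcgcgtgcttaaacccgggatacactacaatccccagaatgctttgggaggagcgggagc
Rrm1 held an E2F match at -67 to -61 between CCAAT boxes at -91 to -87 and -45 to -41, counted from the start site, and no CHR match. Mcm7 has more than 1 RefSeq start. The stretch shown is for the window that held a CHR match, at -173 to -168, close to an E2F match on the opposite strand at -165 to -159. Cdk1 held CHR matches at -71 to -66 and -15 to -10, each downstream of a CCAAT box on the opposite strand, and E2F matches farther up at -178 to -172 and -130 to -124. Within the stretch shown, Bub1b held a CHR match at -188 to -183 and a CCAAT box at -113 to -109 on the opposite strand.

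The windows searched ran from 250 bases before to 50 bases after each RefSeq start, and 31 of the 40 members had at least 1 window. The CHR letters were in 14 of 18 mitotic genes (77.8%), in 2 of 13 S phase genes (15.4%) and in 21.7% of all 27025 genes with a window. E2F letters ran the other way, in 8 of 13 S phase genes (61.5%), 3 of 18 mitotic genes (16.7%) and 10.9% of all genes. CCAAT boxes were common in both, in 16 of 18 mitotic genes (88.9%) and 8 of 13 S phase genes (61.5%), against 41.1% of all genes. CHR and CCAAT occurred together in 14 of 18 mitotic genes and 8.61% of all genes. The 3 mitotic genes with E2F letters were Ccnb1, Cdk1 and Mki67, and the 2 S phase genes with CHR letters were Mcm2 and Mcm7. These frequencies were not tested. In genes outside the 40, CHR letters were in 35 of 48 other mitosis genes (72.9%) and 4 of 23 other DNA replication genes (17.4%), and E2F letters in 13 of 48 (27.1%) and 15 of 23 (65.2%). A match is a string of letters and not a measured binding site. Ccna2, Aurkb, Mcm4, Kif20a, Foxm1, Ccne2, Gins2, Ccnd1 and Tpx2 were not searched.

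All 40 genes stood well above the median gene in both groups. Their mean levels over the 8 arrays ran from 7.71 for Birc5 to 12.94 for Pcna, with a median of 9.50. The S phase genes had a median level of 9.25 and the mitotic genes 9.49. A probe set's brightness depends on its probes, so these levels do not rank one gene against another. In PBS, Pcna, the sliding clamp of DNA polymerase, measured 12.94 ± 0.13 (SD, n = 4). Mki67, the proliferation marker behind the Ki-67 antibody, measured 11.65 ± 0.27, and Ccnd1, cyclin D1, 10.82 ± 0.45. Top2a, the topoisomerase that untangles chromosomes, measured 10.63 ± 0.34, and Cdk1, the kinase that starts mitosis, 9.42 ± 0.50. At the low end, Birc5 (survivin), a subunit of the chromosomal passenger complex, measured 7.68 ± 0.56 and Cdc6, an origin licensing factor, 7.93 ± 0.63.

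None of the 40 genes passed the test for a change with hepcidin. In the limma fit of hepcidin against PBS 0 of 40 members passed an adjusted p of 0.05, and 0 of 24570 genes did (0.0%). At an unadjusted p under 0.05 the count was 0 of 40 members, against 696 genes (2.83%). With the replicate number as a block, 1 gene over all passed (0.00407%), again with 0 members, and 0 members passed unadjusted against 4.9% of all genes. With the number as a random term 5 genes (0.0204%) and 0 members passed. The median log2 change was -0.00022 over the members and 0.00 over all genes. It was 0.03 for the S phase genes, of which 10 lay above 0 and 6 below, and -0.02 for the mitotic genes, of which 9 lay above and 14 below. In these bulk samples, a difference in the number of dividing cells and one in RNA per dividing cell cannot be told apart.

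**Figure D1:**
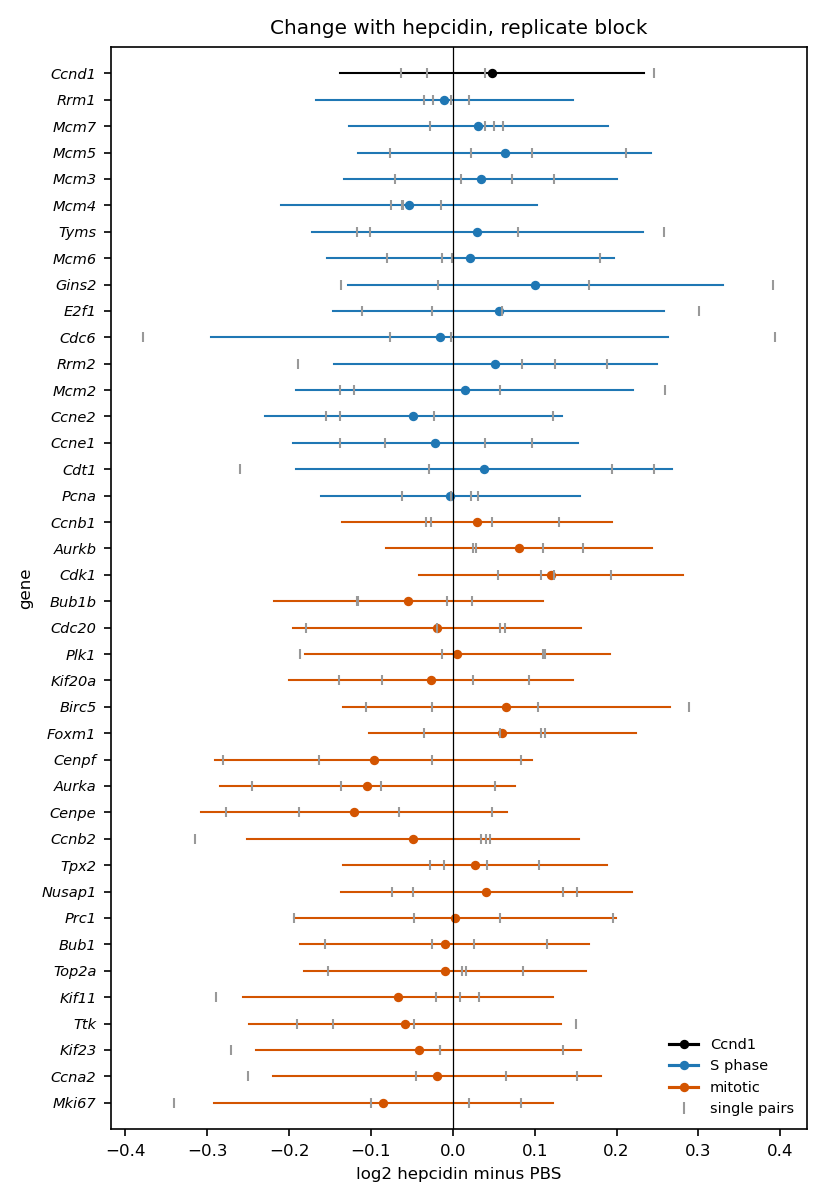
Log2 difference hepcidin minus PBS (x axis) for each of the 40 genes (y axis), with points at the mean of the 4 same-numbered differences, bars at the 95% confidence interval from the limma fit with replicate block, and ticks at the single differences. The points run from -0.12 for Cenpe to 0.12 for Cdk1 and every bar crosses 0.

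Cdk1, with the highest change, measured 8.83, 9.87, 9.81 and 9.19 in PBS arrays 1 to 4 and 9.02, 9.97, 9.86 and 9.31 in hepcidin arrays 1 to 4. The hepcidin array was the higher of each pair, but the groups overlapped over almost their whole range. The change was 0.12 ± 0.27 (SE; limma adjusted p = 1.00), and 0.12 ± 0.07 with the block. Cenpe, the kinesin that moves chromosomes to the spindle equator, had the lowest change. It measured 9.60, 10.04, 9.83 and 8.96 in PBS and 9.32, 9.85, 9.76 and 9.0 in hepcidin. Its hepcidin array was the lower in 3 of 4 pairs, and the change was -0.12 ± 0.25 (SE), or ± 0.08 with the block. Aurka, a spindle pole kinase, measured 8.13, 8.70, 8.81 and 8.09 in PBS and 7.99, 8.75, 8.72 and 7.85 in hepcidin, a change of -0.10 ± 0.24. Mki67 measured 11.63, 11.87, 11.84 and 11.28 in PBS and 11.29, 11.77, 11.85 and 11.37 in hepcidin, a change of -0.08 ± 0.17, with the smallest unadjusted p of the 40 genes in the limma fit (0.620).

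Among S phase genes Gins2, a subunit of the replicative helicase, measured 7.25, 8.29, 8.30 and 8.14 in PBS and 7.64, 8.46, 8.28 and 8.00 in hepcidin. Its array numbered 1 was the lowest of each group, and the change was 0.10 ± 0.25 (SE). Rrm2, the small subunit of ribonucleotide reductase, measured 9.71, 10.17, 10.20 and 9.84 in PBS and 9.52, 10.29, 10.39 and 9.92 in hepcidin, a change of 0.05 ± 0.19. Pcna measured 12.75, 12.98, 12.98 and 13.04 in PBS and 12.78, 12.98, 12.92 and 13.06 in hepcidin, a narrow spread in both groups. Its change was -0.00 ± 0.09.

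Only Cdk1 and Aurkb were higher with hepcidin in 4 of 4 pairs, 2 of 40 against 5.69% of all genes. Mcm4 alone was lower in 4 of 4 pairs, against 5.95% of all genes. The 95% confidence intervals show what change these arrays left room for. With the block they reached from -0.31 to 0.33 at their outer ends over the 40 genes, which is a fall of 1.24-fold or a rise of 1.26-fold. Without the block they reached from -0.72 to 0.78, or 1.64-fold down and 1.72-fold up. The median residual SD of the members was 0.396 without and 0.089 with the block, whereas over all genes it was 0.154 and 0.118.

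The replicate numbers, by contrast, differed in 34 of the 40 genes. They were called in a limma F test of the 4 numbers with treatment in the model, at an adjusted p of 0.05 that 5.67% of all genes passed. All 40 are bright genes. With the test restricted to the 9570 genes with a mean of at least 6, 31.0% of them and 38 of 40 members passed. That restricted fit has its own variance estimate and adjustment, and it called 2969 genes against 1392 in the test of all genes. The 31.0% is therefore not the share of bright genes called in the test of all genes. The 34 were Ccnd1, 11 of 16 S phase genes and 22 of 23 mitotic genes. The median F was 25.2 for the members, 17.2 for the S phase and 28.5 for the mitotic genes, against 1.56 for all genes. The 4 number means of a gene spanned a median of 0.81 for the members and 0.25 for all genes. The span ran from 0.29 (Pcna) to 1.06 (Cdc6) over the S phase genes and from 0.52 (Mki67) to 1.33 (Ccnb1) over the mitotic genes. Mki67 (limma adjusted p = 0.0894), Ccne1 (0.0987), Ccne2 (0.0849), Mcm2 (0.0551), Cdt1 (0.270) and Pcna (0.318) were not called. The count rests on few arrays, and it fell to 18 to 27 of 40 when any 1 of the 8 was left out, with fewer residual degrees of freedom.

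**Figure D2:**
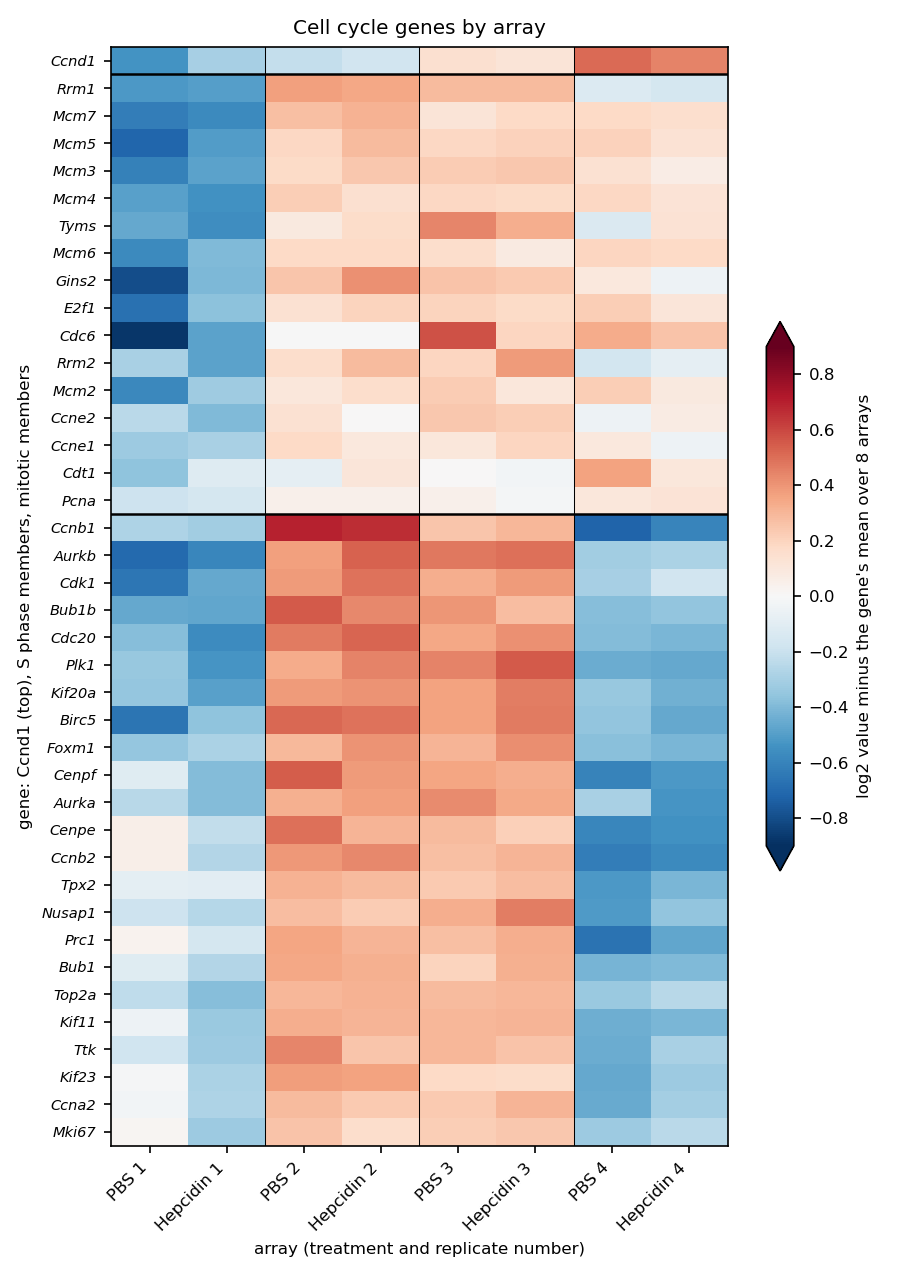
Log2 value of each of the 40 genes minus its own mean over the 8 arrays (colour), with genes in rows (Ccnd1 at the top, then S phase and mitotic members) and arrays in columns by replicate number and treatment. Columns with the same number look alike whatever the treatment, number 1 is low in both sets, and number 4 is low in the mitotic rows.

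S phase genes were low on the arrays numbered 1. For 16 of 16 S phase genes both arrays numbered 1 lay below the 6 others, as they did for Ccnd1, 3 of 23 mitotic genes and 10.2% of all genes. Neutrophil and precursor markers were also at their lowest mean level there (4.53 and 4.40). The mean of the macrophage markers was lowest there as well, at 10.76 and 10.93 against 11.26 to 11.41 on the 6 other arrays. Not each marker was: Adgre1 (11.34 on number 1, 11.32 on number 2) and Cd68 (13.14 and 13.08) averaged lowest on number 2. The part of either list in the S phase result was not tested. Rrm1, the large subunit of ribonucleotide reductase, measured 9.77, 10.66, 10.58 and 10.17 in PBS and 9.80, 10.64, 10.57 and 10.13 in hepcidin. PBS and hepcidin arrays of the same number lay close together, numbers 2 and 3 stood 1.77-fold above number 1, and number 4 lay between. Number 2 exceeded number 1 by 0.86 ± 0.10 (SE; limma adjusted p = 0.00382). Mcm7, a subunit of the MCM helicase, measured 9.03, 9.93, 9.77 and 9.83 in PBS and 9.08, 9.97, 9.83 and 9.81 in hepcidin, so that number 4 stood with 2 and 3. Number 4 exceeded number 1 by 0.76 ± 0.10 (adjusted p = 0.00608) and differed from number 3 by 0.02 ± 0.10, which did not pass.

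The other helicase subunits ran the same course. Mcm5 measured 8.81, 9.71, 9.71 and 9.73 in PBS and 9.02, 9.80, 9.73 and 9.65 in hepcidin. Mcm3 measured 9.04, 9.81, 9.87 and 9.78 in PBS and 9.16, 9.89, 9.88 and 9.71 in hepcidin. For both, numbers 2, 3 and 4 each exceeded number 1 past an adjusted p of 0.05 in limma. Mcm2 measured 8.32, 8.99, 9.12 and 9.12 in PBS and 8.58, 9.05, 9.0 and 8.98 in hepcidin, with numbers 2, 3 and 4 above number 1 by 0.58, 0.61 and 0.60 ± 0.13. E2f1, the transcription factor of the G1 to S step, measured 7.38, 8.19, 8.25 and 8.27 in PBS and 7.68, 8.25, 8.22 and 8.16 in hepcidin. It too was low on number 1 alone, by 0.69 to 0.71 ± 0.12 against each other number. Cdc6 measured 7.05, 7.92, 8.50 and 8.26 in PBS and 7.45, 7.92, 8.12 and 8.18 in hepcidin, with numbers 3 and 4 above number 1 by 1.06 and 0.97 ± 0.17.

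Mitotic genes were high on numbers 2 and 3 and low on both 1 and 4. For 23 of 23 mitotic genes both arrays numbered 4 lay below the 4 arrays numbered 2 and 3, against 5 of 16 S phase genes and 11.8% of all genes. Neutrophil and precursor markers were also higher on numbers 2 and 3 than on number 4, but they were lowest on number 1. Their mean levels were 4.46, 5.74, 5.62 and 5.26 on numbers 1 to 4. Of these markers 12 of 12 averaged lower on number 4 than on number 2, as did 11608 of all 24570 genes. For 3 of the markers the difference passed the threshold, against 0.932% of all genes. The part of these markers in the mitotic result was not tested. Ccnb1, cyclin B1, the partner of Cdk1 at mitotic entry, had the largest F of the 40 (69.5). It measured 9.21, 10.18, 9.74 and 8.76 in PBS and 9.17, 10.15, 9.78 and 8.89 in hepcidin, so that number 2 was highest and number 4 lowest under either treatment. Number 4 fell below number 2 by 1.33 ± 0.10 (SE; limma adjusted p = 0.00563), and numbers 2 and 3 together stood 2.19-fold above number 4. Aurkb, the kinase of the chromosomal passenger complex, measured 8.79, 9.85, 9.95 and 9.17 in PBS and 8.90, 10.01, 9.98 and 9.20 in hepcidin. Here number 1 was the lowest, and numbers 2 and 3 stood 2.16-fold above it and 1.7-fold above number 4. Birc5, its partner in that complex, measured 7.06, 8.23, 8.08 and 7.36 in PBS and 7.35, 8.20, 8.18 and 7.25 in hepcidin, with numbers 1 and 4 both low.

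For Cdk1, whose array values are given above, numbers 2 and 3 stood 1.93-fold above number 1 and 1.55-fold above number 4. Bub1b, the checkpoint kinase BubR1, measured 7.78, 8.79, 8.64 and 7.86 in PBS and 7.78, 8.68, 8.52 and 7.89 in hepcidin. Cdc20, the activator of the anaphase-promoting complex, measured 7.96, 8.82, 8.70 and 7.96 in PBS and 7.79, 8.87, 8.76 and 7.94 in hepcidin. In both genes no array numbered 1 or 4 reached those of 2 and 3, and number 4 differed from number 1 by 0.09 ± 0.10 and 0.07 ± 0.11. Plk1, polo-like kinase 1, measured 9.37, 10.04, 10.15 and 9.26 in PBS and 9.18, 10.16, 10.26 and 9.25 in hepcidin. Number 4 fell below number 3 by 0.95 ± 0.11 (SE; limma adjusted p = 0.0176). Top2a measured 10.40, 10.93, 10.91 and 10.29 in PBS and 10.25, 10.94, 10.93 and 10.38 in hepcidin, with number 4 below number 2 by a margin that passed (limma adjusted p = 0.0454) and below number 3 by one that did not (0.0504). Cenpe and Aurka, given above, were also lowest on number 4 under either treatment. Mki67 was lowest on number 4 in PBS (11.28) and on number 1 in hepcidin (11.29), and no pair of its numbers passed the test.

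Ccnd1 was lowest on number 1, as the S phase genes were, and highest on number 4. It measured 10.30, 10.63, 10.99 and 11.36 in PBS and 10.55, 10.67, 10.96 and 11.29 in hepcidin, so its arrays numbered 1 lay below the 6 others and its arrays numbered 4 above them. Number 4 exceeded number 1 by 0.90 ± 0.11 (SE; limma adjusted p = 0.00591) and number 2 by 0.67 ± 0.11 (adjusted p = 0.0384). Its change with hepcidin was 0.05 ± 0.23.

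Counted over the sets, the pairwise limma tests between numbers called S phase genes against number 1 and mitotic genes against numbers 1 and 4, and the difference between the sets was not tested. Each test compares 2 arrays with 2, the p-values were adjusted over all genes within each of the 6 tests, and no adjustment was made across the 6. Number 2 exceeded number 1 in 11 of 16 S phase and 14 of 23 mitotic genes (2.87% of all genes), and was lower in 0 (1.59%). Number 3 exceeded number 1 in 14 S phase and 15 mitotic genes and in Ccnd1 (3.63% of all genes), and was lower in 0 members (2.62%). Number 4 exceeded number 1 in 9 S phase genes, 0 mitotic genes and Ccnd1 (2.57% of all genes), and was lower in 0 members (1.97%). Number 4 lay below number 2 in 0 S phase and 21 mitotic genes (0.932% of all genes), and below number 3 in 0 S phase and 18 mitotic genes (0.729% of all genes). It lay above number 2 in Ccnd1 alone (0.334% of all genes) and above number 3 in 0 members (0.472%). Numbers 2 and 3 differed in 0 of 40 members, against 0.00407% of all genes higher and 0.0366% lower. The median difference of number 4 from number 2 was -0.06 for the S phase and -0.76 for the mitotic genes, and that from number 1 was 0.61 and -0.13.

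**Figure D3:**
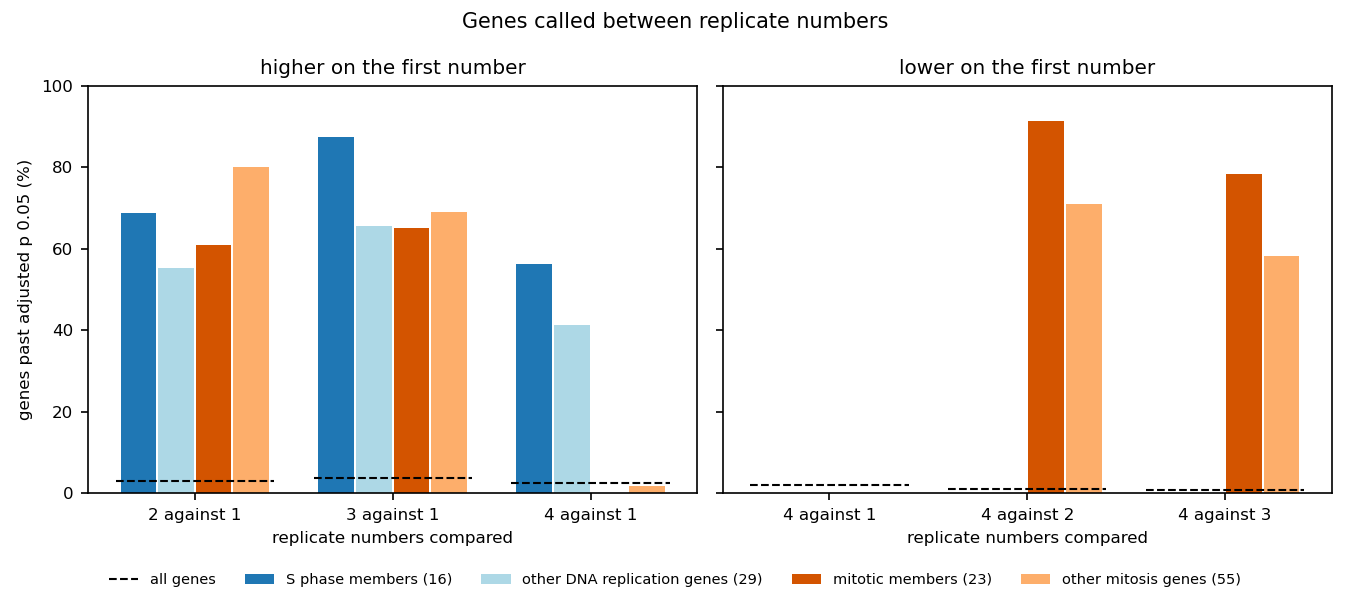
Share of each gene set past an adjusted p of 0.05 in limma (y axis, percent) for comparisons of 2 replicate numbers (x axis), split by direction, with bars for the S phase members, other DNA replication genes, mitotic members and other mitosis genes and dashed lines for all genes. Both sets are called against number 1, whereas against numbers 2 and 3 number 4 is lower in 21 and 18 of 23 mitotic genes and in 0 of 16 S phase genes.

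Averaged by set, the S phase genes deviated from their own means by -0.52 and -0.41 on the PBS and hepcidin arrays numbered 1. On numbers 2, 3 and 4 they deviated by 0.15 and 0.19, 0.22 and 0.18, and 0.12 and 0.08. The mitotic genes deviated by -0.23 and -0.35, 0.39 and 0.38, 0.31 and 0.34, and -0.45 and -0.40 on numbers 1 to 4. The S phase mean minus the mitotic mean was 0.56 and 0.48 on number 4, and between -0.29 and -0.06 on the 6 other arrays. Over the 8 arrays, deviations from the group means correlated on average at 0.846 between pairs of S phase genes and 0.925 between pairs of mitotic genes. They correlated at 0.465 between the sets and at 0.00174 over all genes. These are descriptions over 8 arrays that share their numbers. Without the arrays numbered 1 the S phase value was 0.0938 and the value between the sets 0.294, and without those numbered 4 the latter was 0.918. Ccnd1 correlated at 0.609 with the S phase and at -0.25 with the mitotic genes.

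Which arrays carried the calls also differed by set. Without the PBS array numbered 1 the F test called 1 S phase and 20 mitotic genes (2.10% of all genes), and without the hepcidin array numbered 1 it called 4 and 19 (2.57%). With both left out it called 0 S phase and 14 mitotic genes (0.704%). Without the PBS array numbered 4 it called 7 S phase and 11 mitotic genes (2.50%), and without the hepcidin array numbered 4 it called 7 and 15 (2.69%). With both left out the counts were 9 and 12 (3.48%). Leaving out either array numbered 2 gave 5 S phase and 16 mitotic genes (3.02% and 3.13%). Leaving out the PBS array numbered 3 gave 7 and 18 (3.39%), and the hepcidin array numbered 3 gave 9 and 17 (3.5%). Ccnd1 was not called without the PBS array numbered 1, without either array numbered 4, or without both arrays of number 1 or of number 4.

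Genes of the same pathways outside the 40 were counted in the same tests, with the shares over all genes given for comparison. Of 29 other DNA replication genes (origin, polymerase, clamp loader and nucleotide genes) 15 passed the F test. Of 55 other mitosis genes (kinetochore, condensin and spindle genes) 48 did, against 5.67% of all genes. With the test restricted to genes with a mean of at least 6, 21 of 26 and 52 of 54 passed, against 31.0% of those genes. Number 2 exceeded number 1 in 16 replication and 44 mitosis genes (2.87% of all genes), number 3 in 19 and 38 (3.63%), and number 4 in 12 and 1 (2.57%). Number 4 lay below number 2 in 0 replication and 39 mitosis genes (0.932%), and below number 3 in 0 and 32 (0.729%). Pairs of genes correlated on average at 0.805 within the replication and 0.840 within the mitosis list. Hepcidin called 0 genes of either list. Nearest to a call there were Ung, a uracil glycosylase (0.22 ± 0.21), Dscc1, a clamp loader subunit (-0.10 ± 0.10), Spc24, a kinetochore subunit (0.14 ± 0.21), and Sgo1, a protector of centromeric cohesion (-0.14 ± 0.20).

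**Figure D4:**
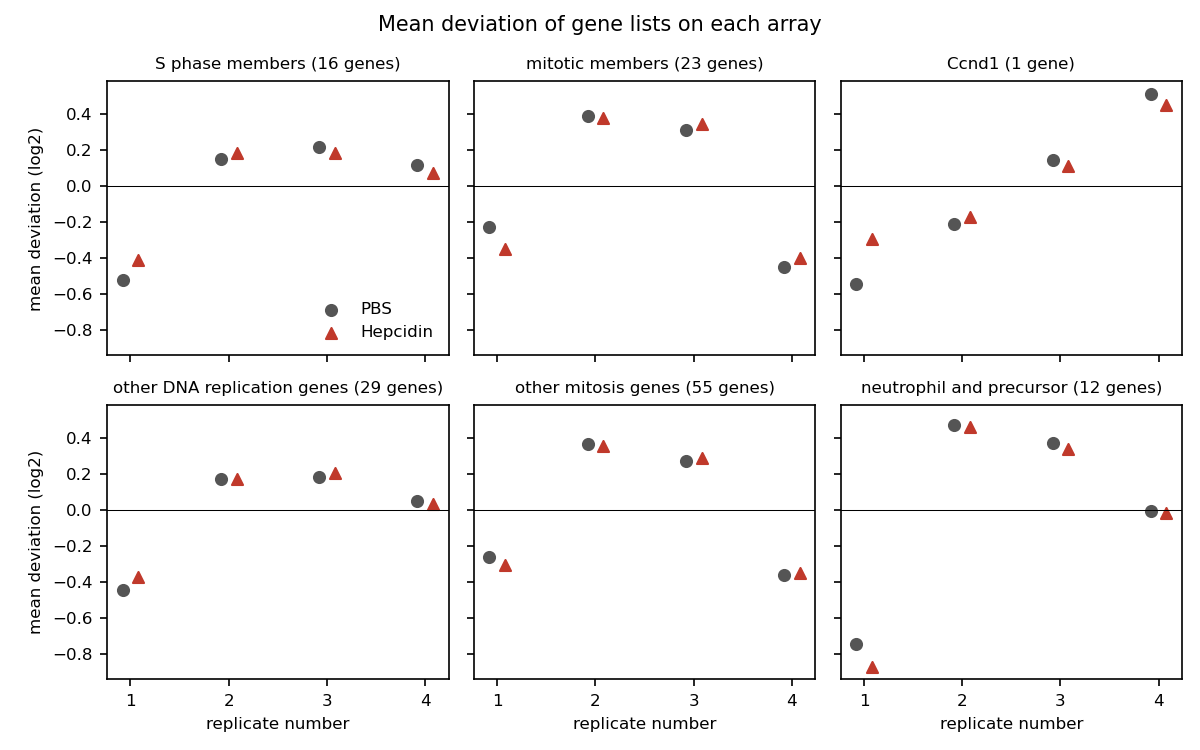
Mean log2 deviation of a gene list from its genes' own means (y axis) on each array, by replicate number (x axis), with circles for PBS and triangles for hepcidin, in 6 panels. S phase and other DNA replication genes are low on number 1 alone, mitotic and other mitosis genes on 1 and 4, Ccnd1 runs from -0.54 to 0.51, and neutrophil and precursor markers are lowest on number 1.

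Among regulators of the cycle, the F test by number called 2 of 7 G1 cyclins and kinases (Ccnd3 and Cdk2), 3 of 13 E2F and DREAM factors (E2f2, E2f7 and Mybl2) and 3 of 10 CDK inhibitors and pocket proteins. The share over all genes was 5.67%. In the test restricted to genes with a mean of at least 6 it was 31.0%, but the counts of these lists in that test are not given. The share over all genes depended on which genes were tested, so these counts are not read as a result about the lists. Cdkn2c, an inhibitor of Cdk4 and Cdk6, averaged 6.87, 7.85, 7.79 and 6.89 on numbers 1 to 4, high where the mitotic genes were high. Cdkn2d, of the same family, averaged 8.24, 8.76, 8.82 and 8.04. Cdkn1c, the inhibitor p57, ran opposite at 6.34, 5.69, 5.76 and 6.42. Cdkn1a, the p53 target p21, was not called (limma adjusted p = 0.442), nor were Cdkn1b, the inhibitor p27 (0.0854), and the growth factor target Myc (0.201). None of these lists had a gene called with hepcidin. The changes with hepcidin were 0.11 ± 0.12 for Myc, 0.04 ± 0.09 for the cyclin D partner Cdk4, 0.04 ± 0.10 for Cdkn1a and -0.09 ± 0.17 for Cdkn1b. They were -0.15 ± 0.11 for Rb1 and -0.07 ± 0.10 for Rbl1, pocket proteins that bind E2F, and 0.05 ± 0.10 for E2f5 and -0.10 ± 0.13 for E2f8.

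Most of the neutrophil and precursor markers moved with the numbers as well. Of 12 neutrophil and precursor markers 8 passed the F test, against 5.67% of all genes. Ms4a3, Camp, Ly6g and Cebpe did not pass, and none of them averaged lowest on number 1. The mean level of the 12 markers was 4.53 and 4.40 on the PBS and hepcidin arrays numbered 1, and 5.74 and 5.73 on number 2. It was 5.64 and 5.61 on number 3, and 5.26 and 5.25 on number 4. Ngp, a neutrophil granule protein, averaged 4.58, 8.04, 8.11 and 7.53 on numbers 1 to 4. The granule protease Elane averaged 4.83, 7.00, 7.06 and 6.31, and the peroxidase Mpo 4.77, 7.28, 7.09 and 6.51. On number 1 all 3 lay below the median gene (4.92). Of the macrophage markers 2 of 7 were called, both lowest on number 1, against 5.67% of all genes. In the test restricted to genes with a mean of at least 6 the share was 31.0%, and the count of this list in that test is not given. Fcgr1, an Fc receptor, averaged 9.01, 10.58, 10.71 and 11.35 on numbers 1 to 4, a span of 2.33 that exceeds that of each of the 40 genes. Mertk, a receptor for dying cells, averaged 7.92, 8.58, 8.56 and 8.28. Csf1r, the M-CSF receptor, averaged 11.49, 11.91, 11.90 and 11.93 and was not called (limma adjusted p = 0.0989). Of the 34 markers of other lineages 1 was called (Vwf), a share of 2.94%. The deviations of the S phase and the mitotic genes correlated with those of the neutrophil and precursor markers at 0.588 and 0.570 on average. Their part in the result was not tested.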

How the data were processed

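Biotin-labelled RNA from 8 samples was read on Affymetrix whole-transcript arrays, per the labels. Log2 intensities were deposited as RMA values, with affy 1.36.1 named in the submitters' processing notes. RMA corrects background, quantile-normalizes and summarises probes. The probe set definition is not given in the sources used here. Of 24973 probe sets, 24015 were named by the platform annotation and 559 more (Ccnb1 among them) by the RefSeq gene number; 399 were left out. For 4 symbols with several sets only the brightest set was used, giving 24570 genes with no filter on dim values. The marker list entries Lyz2, Vpreb1 and Hba-a1 were not analysed here.

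Groups and numbers came from the sample titles. The tool was limma 3.58.1 (lmFit, eBayes; R 4.3.3), with Benjamini-Hochberg adjustment over the 24570 genes and a threshold of 0.05. The main fit had no block. Equal numbers were taken to pair the arrays. Across genes, same-numbered arrays had deviations that correlated at 0.345 to 0.551, above the bound of 0.1, and other arrays at -0.356 to 0.125. The PBS array numbered 3 and the hepcidin array numbered 2 also passed that bound, at 0.125. The fits were tested on simulated data. The 8 arrays limit the precision. The members, lists, motifs and rule for named genes were chosen with earlier results of these data known; the pairwise tests between numbers and the exclusions of both arrays of a number were added after seeing the data. The rule gave array values for the 4 S phase and 6 mitotic genes with the largest F, the 3 smallest hepcidin p-values in each direction, the highest and lowest levels and 7 set genes, and from other lists the 2 smallest hepcidin p-values. Genes called by number from those lists, and Ngp, Elane, Mpo and Csf1r, were named after their values were seen. Promoter sequences come from RefSeq (GRCm38.p6). The alternatives were other normalizations, filters on dim genes, probe set choice, variance settings, blocks and leaving out arrays.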

Additional observations from a re-analysis of the deposited data

Results flagged for a closer look

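In each group of 4 arrays, the highest and the lowest value of each of the 40 genes were checked for a gap from the other 3 that is wide for the group's range (past Dixon's 95% value). For independent values chance gives such a gap in about 1 of 20 groups. The share of such gaps over all genes is not given, so the count is not read as an excess. Both arrays numbered 1 lay below the 6 others for 10.2% of all genes. Of 80 groups checked, 11 had one, and each was an S phase gene at its lowest on the array numbered 1. Among MCM helicase genes, Mcm2 was 8.32 in PBS (others 8.99 to 9.12) and 8.58 in hepcidin (others 8.98 to 9.05), and Mcm4 was 9.12 in PBS (others 9.79 to 9.82) and 9.06 in hepcidin (others 9.73 to 9.78). In PBS alone, Mcm3 was 9.04 (others 9.78 to 9.87), Mcm5 8.81 (others 9.71 to 9.73) and Mcm6 9.54 (others 10.28 to 10.31). The transcription factor E2f1 was 7.38 in PBS (others 8.19 to 8.27) and 7.68 in hepcidin (others 8.16 to 8.25). In PBS, Gins2 was 7.25 (others 8.14 to 8.30) and Ccne1, cyclin E1, 7.83 (others 8.25 to 8.34). Genes of 1 array are not independent of each other, and neutrophil and precursor markers were lowest on the same arrays (4.53 and 4.40), whose part was not tested.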

How the results depend on the processing

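No member passed the threshold for hepcidin under any of the 24 settings tried, and no result changed direction past a threshold. Genes called with hepcidin numbered 0 as reported, 1 with the replicate block, 5 with the number as a random term, 1 with the replicate block without both arrays numbered 1, and 0 to 2 when 1 array was left out. Genes called by number were 1392 as reported, 2969 of 9570 among genes with a mean of at least 6, 2671 among genes at or above the median, 2925 with trend and robust variance, 855 and 173 without both arrays numbered 4 and 1, and 515 to 859 when 1 array was left out. Members called by number were 21 and 14 without both arrays numbered 4 and 1, and 18 to 27 when 1 array was left out. Leaving out 1 array moved the median hepcidin change between -0.13 and 0.13 for the members, -0.16 and 0.15 for the S phase and -0.17 and 0.12 for the mitotic genes. It moved the hepcidin minus PBS value of the S phase against the mitotic mean between -0.12 and 0.23, since unpaired arrays then carry their number's deviation into 1 group. The correlation within S phase genes was 0.0938 without both arrays numbered 1. Between the sets it was 0.294 without number 1, 0.918 without number 4, and 0.361 to 0.689 when 1 array was left out. Of 505 values of single members, 88 moved by at least their SD over pairs, 87 of them where 1 array was left out, and 97 changed sign around 0, none of them called. Ratios near background are compressed by this scale, and each number rests on 2 arrays.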
